A study of Mus musculus with 15 samples.

Results

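The genes described here make retinoic acid, the active form of vitamin A, or handle its precursors and products. They are Aldh1a1, Aldh1a2, Aldh1a3, Aldh1a7, Lrat, Dhrs3, Stra6, Crabp2 and Cyp26b1, taken by their symbols, and all 9 were found among the 27907 genes of the deposited table. Ovarian mRNA was sequenced from 7 female mice homozygous for HSD17B1 Ser143Ala, named HSD17B1-KI, and from 8 wild-type (WT) females, with 1 library per mouse. All mice were 6 months old and in the estrus phase. The knock-in line was made with CRISPR/Cas9 and carries the mutation in the germ line, and both genotypes came from matings of heterozygous parents. HSD17B1 forms estradiol from estrone in granulosa cells, and the mutated serine lies in its catalytic site. The question here was whether the retinoid genes, and the proportions of the Aldh1a paralogs, differed between the genotypes.

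Retinol enters cells by the membrane receptor STRA6 or by diffusion, and lecithin retinol acyltransferase (LRAT) stores it as retinyl esters. Alcohol and retinol dehydrogenases oxidize retinol to retinal, and DHRS3 reduces retinal back to retinol. The aldehyde dehydrogenases ALDH1A1, ALDH1A2 and ALDH1A3 then oxidize retinal to retinoic acid, a step that is not reversed. CRABP2 carries retinoic acid to its nuclear receptors, and the cytochrome CYP26B1 degrades it. In the ovary, retinoic acid is best known for the entry of fetal germ cells into meiosis, and in the adult it acts on somatic cells of the follicle.

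Between 39092867 and 69972608 reads per HSD17B1-KI mouse (median, 43611091) and between 26544745 and 72362981 per WT mouse (median, 45313571.5) were counted on genes. Values are normalized counts, which are the reads counted on a gene divided by 1 size factor per library. Hsd17b1 itself was read in every mouse, at 5459 to 17386 normalized counts in HSD17B1-KI and 6480 to 14111 in WT, which does not check the genotype labels because the mutation alters 1 codon. All 8 markers of theca and interstitial cells, 7 of granulosa cells, 5 of luteal cells, 6 of oocytes and 5 of stroma were above 0 in all 15 ovaries. Oviduct markers stood apart in WT 1 and WT 8, with summed levels of 227340 and 151057 normalized counts against at most 23712 in any other mouse. For the 9 genes and the pathway genes named below, fits without these libraries are given where the call changed. Because whole ovaries were sequenced, fewer cells of a type and less RNA per cell cannot be told apart.

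Aldh1a1 and Aldh1a7 lie side by side on mouse chromosome 19 (GRCm38), at chr19:20492715-20643465 on the plus strand and chr19:20692953-20727562 on the minus strand. Their proximal promoters are shown because a stretch of them is the same in both genes. The lines give the 250 bases before the transcription start of each gene, 5′ to 3′ on the strand of the gene, from RefSeq on GRCm38.p6, at chr19:20601718-20601967 for Aldh1a1 and chr19:20727557-20727806 for Aldh1a7. Capitals mark the longest run that is identical in both, 65 bases from 94 to 30 bases before the start.

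Aldh1a1: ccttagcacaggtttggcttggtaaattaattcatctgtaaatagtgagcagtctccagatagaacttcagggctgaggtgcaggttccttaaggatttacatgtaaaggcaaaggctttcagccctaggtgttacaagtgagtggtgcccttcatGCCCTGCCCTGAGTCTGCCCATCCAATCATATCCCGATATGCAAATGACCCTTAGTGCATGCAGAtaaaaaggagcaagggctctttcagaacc

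Aldh1a7: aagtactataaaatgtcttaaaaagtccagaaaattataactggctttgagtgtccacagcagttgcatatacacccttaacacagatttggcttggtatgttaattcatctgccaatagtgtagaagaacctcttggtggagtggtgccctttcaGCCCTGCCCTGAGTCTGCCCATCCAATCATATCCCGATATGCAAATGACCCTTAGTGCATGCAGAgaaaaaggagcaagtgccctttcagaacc

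The windows were identical at 176 of 232 aligned bases (75.9%). The identical run holds a CCAAT box 72 bases before the start and the octamer ATGCAAAT 56 bases before the start in both genes. The octamer, searched on both strands, occurred in 526 of 32851 promoters of this length (1.6%), and CCAAT in 11120 of them (33.8%). The promoter table held 13 windows of 7 of the 9 genes, without Aldh1a3 and Crabp2. The octamer was in 3 of the 13 windows, those of Aldh1a1, Aldh1a7 and Aldh1a2, where it lay 84 bases before the start. CCAAT was in 7 of them, and CAAGGTCA, an extended half-site of steroidogenic factor 1, was in none against 438 of all promoters (1.33%).

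The retinoic acid response element with a spacer of 5 bases was also searched, as NGTTCA, any 5 bases and AGTTCA, on both strands. It was in 9 of 32851 promoters (0.0274%) and in 0 of the 13 windows of the genes described here. Among the other genes of the pathway it was in the promoters of Cyp26a1, which degrades retinoic acid, and of the receptor gene Rarb. Both are known targets of retinoic acid and are shown as the reference form of the element, with the element in capitals and 5 bases on each side, on the minus strand at chr19:37697771-37697797 and chr14:16575508-16575534.

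Cyp26a1: aaattAGTTCACCCAAAGTTCAtcttt

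Rarb: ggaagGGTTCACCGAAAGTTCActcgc

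With limma-trend over 21525 genes (a mean of 2 or more normalized counts over the 15 mice), 1 of the 9 genes, Aldh1a1, was differentially expressed (DE) and higher in HSD17B1-KI at an adjusted p under 0.05, against 0.214% of all genes in either direction and 0.209% higher in HSD17B1-KI. DESeq2 on the recovered reads called 3 of the 9, Aldh1a1, Lrat and Dhrs3, all higher, where it called 2.30% of 19790 genes in either direction and 1.59% higher. edgeR called 1, Aldh1a1, against 0.232% of genes. At an unadjusted p under 0.05 in limma-trend, 5 of the 9 were higher (Aldh1a1, Aldh1a7, Lrat, Dhrs3 and Cyp26b1) and none lower, with 5.36% of all genes higher and 4.64% lower at the same limit. Differences of HSD17B1-KI minus WT on the log2 scale ran from -0.42 to 1.03 with a median of 0.39, beside a median of -0.02 over all genes. All 9 passed the filter on low counts, and no p was adjusted over the 9 alone. Exact permutation tests, unadjusted, gave p of 0.0001554 for Aldh1a1, 0.0014 for Dhrs3, 0.0042 for Lrat, 0.00544 for Aldh1a7 and 0.0179 for Cyp26b1. For Aldh1a3, Stra6, Aldh1a2 and Crabp2 the exact permutation p was 0.112, 0.140, 0.277 and 0.784.

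**Figure D1:**
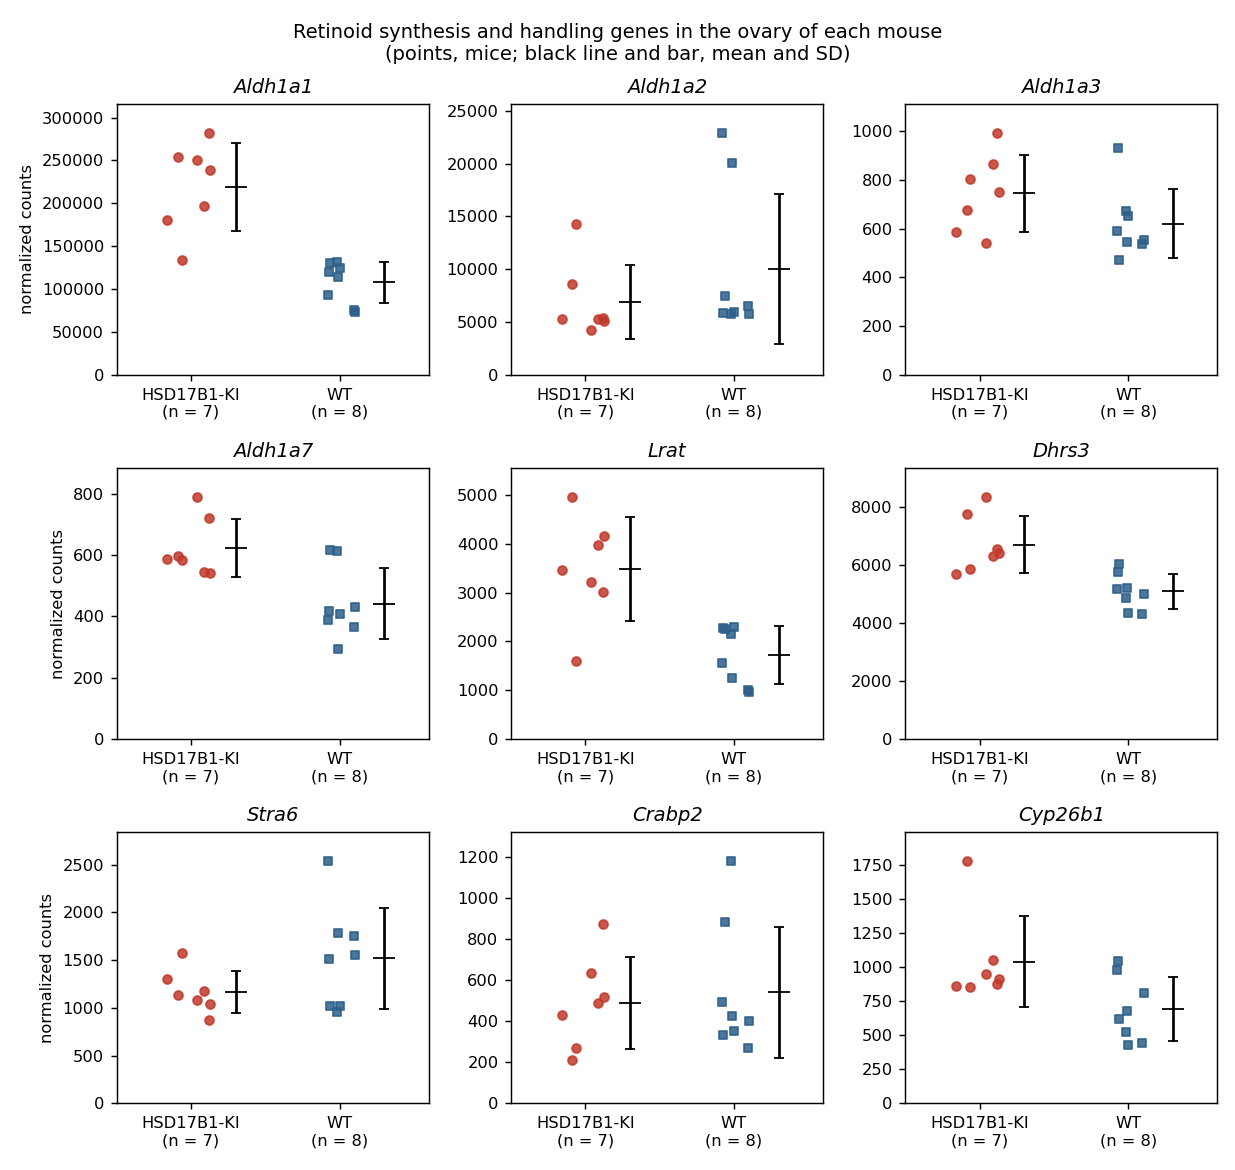
Normalized counts of the 9 genes in the ovary of each mouse (circles, 7 HSD17B1-KI; squares, 8 WT; black, mean and SD), with each axis starting at 0. The genotypes do not overlap for Aldh1a1, where the lowest HSD17B1-KI mouse is at 133882 and the highest WT mouse at 131407, and they overlap for the other 8 genes.

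Among the retinal dehydrogenases, Aldh1a1 (ENSMUSG00000053279) was the most abundant by far and differed most. HSD17B1-KI mice 1 to 7 had 250018, 238442, 197289, 253944, 133882, 282286 and 180370 normalized counts, with a median of 238442. WT mice 1 to 8 had 73843, 75136, 114016, 129999, 120430, 93292, 131407 and 124609, with a median of 117223. Every HSD17B1-KI mouse was above every WT mouse, as for 0.274% of genes, but HSD17B1-KI 5 exceeded WT 7 by little, and WT 1 and WT 2 were the lowest of all. The mean level was 2.04 times the WT mean, and the log2 difference was 1.02 (95% interval 0.65 to 1.39) with an adjusted p of 0.0276 in limma-trend, 0.0242 in edgeR and 8.92e-06 in DESeq2.

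The limma-trend call of Aldh1a1 depended on single mice. It held in 4 of the 15 fits with 1 mouse left out, those without WT 5, WT 7, HSD17B1-KI 7 or HSD17B1-KI 5 (adjusted p in limma-trend, 0.00826), and was lost in the other 11, where the adjusted p reached at most 0.0800. The log2 difference lay between 0.95 and 1.13 over these 15 fits. Without WT 1 and WT 8 the log2 difference was 0.98 and the limma-trend adjusted p 0.111, while DESeq2 gave 7.62e-05 on the same 13 mice and called the gene in all 15 of its fits without 1 mouse. With a score of the oviduct markers as a covariate and all mice kept, the log2 difference was 1.02 (limma-trend adjusted p 0.0351). Over the 25 alternatives of the fit across all genes other than a replicate block, the adjusted p ran from 8.92e-06 in DESeq2 to 0.111. The direction was higher in HSD17B1-KI in all of them.

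Aldh1a2 (ENSMUSG00000013584, chr9:71215789-71296243), the main retinoic acid-forming enzyme of the embryo, was not DE. HSD17B1-KI mice 1 to 7 had 4235, 5118, 5309, 8611, 14322, 5387 and 5322 normalized counts. The WT mice, 1 to 8, had 5779, 6533, 20046, 7501, 5896, 22928, 5745 and 5937. In each genotype 2 mice stood above the rest, HSD17B1-KI 4 and 5 and WT 3 and 6, so that the means (6901 ± 3550, n = 7, and 10045 ± 7127, SD, n = 8) describe few of the mice. The medians were 5322 and 6235, and the log2 difference was -0.42 (95% interval -1.16 to 0.32, limma-trend adjusted p 0.736).

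These 4 mice with high Aldh1a2 were also the 4 with the highest summed level of the 5 stroma markers and the 4 with the lowest Cyp17a1, the androgen-forming enzyme of theca cells. The stroma sums were 151160 in HSD17B1-KI 5, 127659 in WT 6, 113998 in HSD17B1-KI 4 and 110475 in WT 3, against at most 95714 elsewhere. Their Cyp17a1 levels lay between 107 and 254 normalized counts, where the other 11 mice had 2033 to 56551. The same 4 mice also had the lowest sums of the 7 granulosa markers. These were 69706 in HSD17B1-KI 4, 84151 in WT 3, 88741.5 in WT 6 and 89749 in HSD17B1-KI 5, with WT 1 close above at 90691. The summed level of all 8 theca and interstitial markers, Cyp17a1 among them, lay above the genotype median in each of these mice. It was 1005206.5 in HSD17B1-KI 4 and 953518 in HSD17B1-KI 5 (median, 830485), and 842883 in WT 3 and 724931 in WT 6 (median, 674377). The 4 mice were picked out after their values were seen, they comprise 2 of each genotype, and the part of their cell composition in the Aldh1a2 level was not tested.

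**Figure D2:**
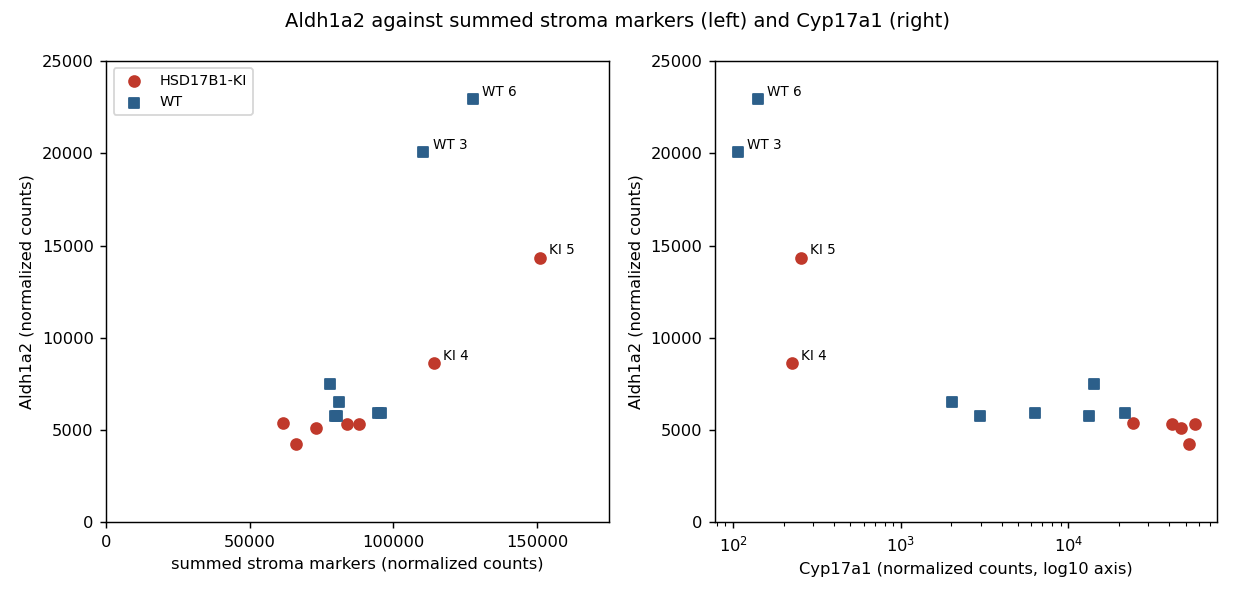
Aldh1a2 in each mouse (normalized counts) against the summed normalized counts of the stroma markers Dcn, Lum, Col1a1, Col1a2 and Pdgfra (left) and against Cyp17a1 on a log10 axis (right); circles, HSD17B1-KI; squares, WT. HSD17B1-KI 4 and 5 and WT 3 and 6 have the highest Aldh1a2, the highest stroma sums and the lowest Cyp17a1.

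Aldh1a3 (ENSMUSG00000015134, chr7:66390890-66427517), the third retinal dehydrogenase, was low in both genotypes. It lay between 542 and 993 normalized counts in HSD17B1-KI (median, 750.5) and between 472 and 930 in WT (median, 571). Only 1 HSD17B1-KI mouse was above the highest WT mouse, WT 5. The log2 difference of 0.27 (95% interval -0.05 to 0.58) had a limma-trend adjusted p of 0.583.

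Aldh1a7 (ENSMUSG00000024747), a rodent paralog beside Aldh1a1, was about as low as Aldh1a3. HSD17B1-KI mice 1 to 7 had 790, 542, 545, 597, 586, 723 and 588 normalized counts. The WT mice, 1 to 8, had 429, 364, 295, 618, 418, 390, 614 and 407. Of the 8 WT mice, 6 were below the lowest HSD17B1-KI mouse, and WT 4 and WT 7 lay within the HSD17B1-KI range. The log2 difference was 0.52 (95% interval 0.21 to 0.84) with an exact permutation p of 0.00544, unadjusted, and it was not DE over all genes with limma-trend (adjusted p 0.187) or DESeq2 (0.0632). DESeq2 called it without WT 4 (adjusted p 0.00966) and without WT 7 (0.0109), and in no other of its 15 fits.

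The count of Aldh1a7 is uncertain, because its coding sequence was identical to that of Aldh1a1 at 1380 of 1501 aligned bases (91.9%), whereas the other pairs of paralogs had between 69.7% and 71.8%. Of the 2017 windows of 50 bases in the Aldh1a7 transcript, 151 occurred letter for letter in an Aldh1a1 transcript, and 1 of 1967 windows of 100 bases did. No window of 50 bases was shared by any other pair. Aldh1a7 reads were 0.296 ± 0.0726% of the number of Aldh1a1 reads in the knock-in ovaries (SD, n = 7) and 0.420 ± 0.104% in WT (SD, n = 8). The log2 ratio of Aldh1a7 to Aldh1a1 was lower in HSD17B1-KI by an average of -0.50, with an exact permutation p of 0.0202 (two-sided, unadjusted). The ratio is not independent of the log2 differences of Aldh1a7 and Aldh1a1 given above. The percentages overlapped between the genotypes, from 0.227 to 0.437 in HSD17B1-KI and from 0.259 to 0.581 in WT. How the counting treated reads that match both genes is not given in the sources used here, and its part in the Aldh1a7 count was not tested.

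Relative abundance was compared per kilobase of exon, since the genes differ in length. On this scale, the level of Aldh1a1 was 44452 ± 10385 normalized counts per kb in HSD17B1-KI (SD, n = 7), and in WT it was 21844 ± 4818 (SD, n = 8), which ranked it 15th and 39th among 27533 genes. Aldh1a2 had 3048 ± 1568 and 4437 ± 3148, Aldh1a7 302 ± 45.8 and 214 ± 55.7, and Aldh1a3 161 ± 34.2 and 134 ± 30.6. The order Aldh1a1, Aldh1a2, Aldh1a7, Aldh1a3 was the same in all 15 mice. The order of the lowest pair rested on the length used, because with coding length Aldh1a3 had the larger share of the sum in both genotypes (0.335% against 0.283% in HSD17B1-KI, and 0.527% against 0.382% in WT).

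The paralogs together reached 47964 ± 9503 (SD, n = 7) normalized counts per kb in HSD17B1-KI, between 33902 and 60122, and 26629 ± 5439 (SD, n = 8) in WT, between 17837 and 32209. Every HSD17B1-KI sum was above every WT sum, and Aldh1a1 made up most of it in each mouse. Its share was 92.0 ± 5.43% (SD, n = 7) in HSD17B1-KI, between 80.0% and 95.5%, and 82.3 ± 9.40% (SD, n = 8) in WT, between 64.4% and 89.9%. In 6 of the 7 HSD17B1-KI mice the share was above that of every WT mouse, and HSD17B1-KI 5, WT 3 and WT 6 had the lowest shares. Aldh1a2 made up nearly all of the rest, with 6.98 ± 5.28% in HSD17B1-KI and 16.3 ± 9.59% in WT. With coding length, the Aldh1a1 share was 96.1% and 90.8% and the Aldh1a2 share 3.31% and 8.28%. The shares are not independent of the levels tested above, and no test was made on them.

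**Figure D3:**
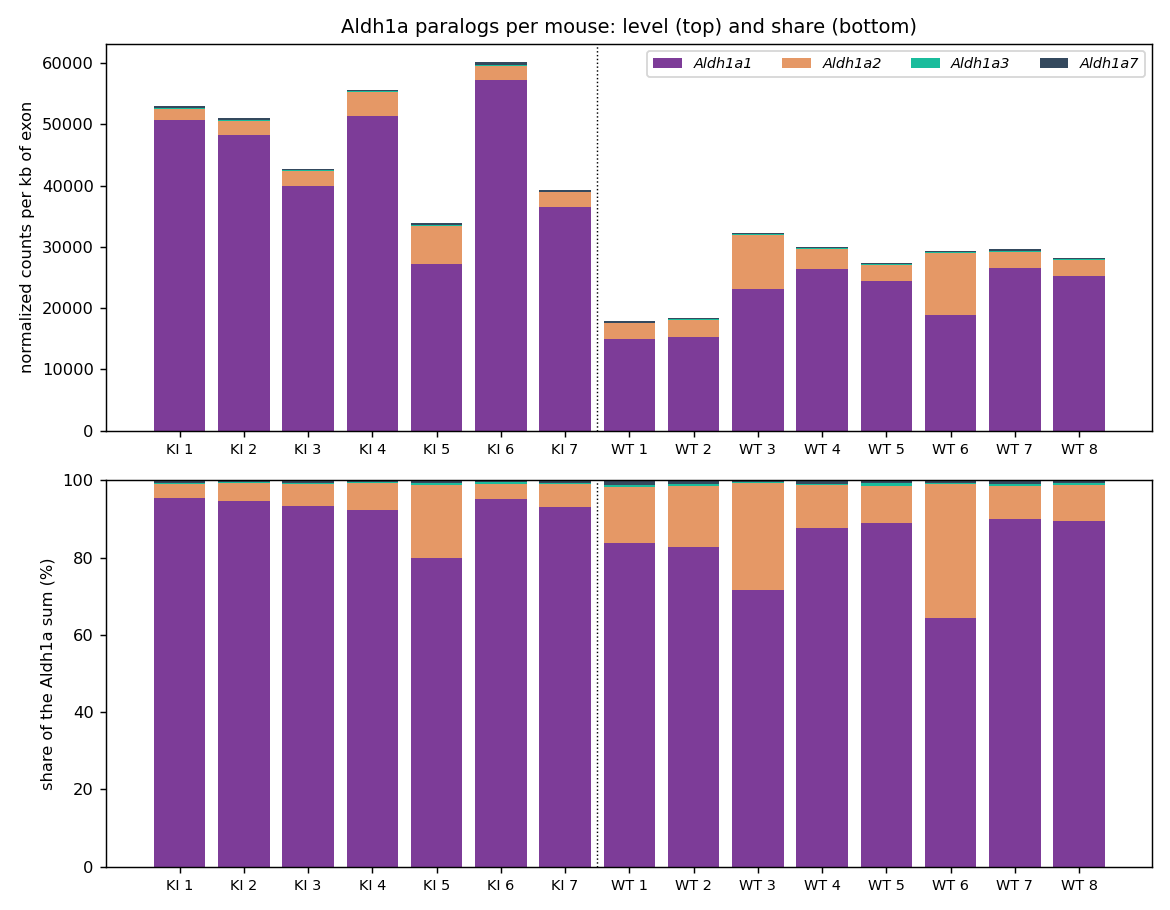
Level of the 4 Aldh1a paralogs in each mouse, as normalized counts per kilobase of exon (top), and their share of the sum in percent (bottom). KI 1 to KI 7 are HSD17B1-KI mice and WT 1 to WT 8 wild-type mice; the sums lie between 33902 and 60122 in HSD17B1-KI and between 17837 and 32209 in WT, and the Aldh1a2 share is largest in WT 6, at 34.5%.

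Of the enzymes that store retinol or return retinal to it, Lrat (ENSMUSG00000028003, chr3:82892579-82903973) had a difference of the same size as Aldh1a1. HSD17B1-KI mice 1 to 7 had 3212, 4160, 3969, 4958, 1596, 3017 and 3458 normalized counts. In WT mice 1 to 8 it was at 961, 996, 1243, 2250, 2280, 1569, 2162 and 2292. All HSD17B1-KI mice except number 5 were above every WT mouse, and HSD17B1-KI 5 fell among the WT mice, while WT 1 and WT 2 were again the lowest. The mean level was 2.03 times that of WT, and the log2 difference was 1.03 (95% interval 0.49 to 1.57). Lrat was not DE with limma-trend (adjusted p 0.110) or edgeR (0.0958) but was with DESeq2 (0.00595), which called it in all 15 fits without 1 mouse and without WT 1 and WT 8 (0.0141). With limma-trend it was DE in 1 fit, that without HSD17B1-KI 5 (log2 difference 1.21, adjusted p 0.0265).

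Dhrs3 (ENSMUSG00000066026, chr4:144892827-144928209), which reduces retinal and is itself a known target of retinoic acid, differed less but with little spread. HSD17B1-KI mice 1 to 7 had 8339, 6413, 6309, 7757, 5842, 6554 and 5701 normalized counts. In WT mice 1 to 8 it was at 4990, 4314, 5206, 6040, 5771, 5167, 4877 and 4360. All 7 HSD17B1-KI values exceeded the mean of the WT mice, and 5 of them exceeded the highest WT value, that of WT 4. The log2 difference was 0.39 (95% interval 0.19 to 0.59), with an adjusted p of 0.101 in limma-trend, 0.0958 in edgeR and 0.0112 in DESeq2. DESeq2 called it in all 15 fits without 1 mouse and no longer without both WT 1 and WT 8 (adjusted p 0.0824).

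For the uptake of retinol, Stra6 (ENSMUSG00000032327, chr9:58063788-58153996) lay between 870 and 1573 normalized counts in HSD17B1-KI (median, 1137) and between 961 and 2535 in WT (median, 1535). WT 6 was the highest and no HSD17B1-KI mouse exceeded the highest WT mouse, and 6 of the 7 HSD17B1-KI mice lay within the WT range. The log2 difference was -0.33 (95% interval -0.74 to 0.08, limma-trend adjusted p 0.613).

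Crabp2 (ENSMUSG00000004885, chr3:87948666-87953376), the carrier of retinoic acid to its receptors, was not DE. It lay between 212 and 874 normalized counts in HSD17B1-KI (median, 488) and between 268 and 1177 in WT (median, 413). The highest mice were WT 7, WT 4 and HSD17B1-KI 6, which were also the 3 mice with the lowest Ptgfr, a receptor of luteal cells, at 501 to 620 normalized counts. The sum of the 5 luteal markers was lowest in WT 8 (37909), where Crabp2 was at 350. It was 38106 in WT 4, 43110 in WT 7, 51492 in WT 3 and 58126 in HSD17B1-KI 6. Ptgfr was named because it moved with Crabp2, and the part of luteal cells was not tested. The log2 difference of Crabp2, -0.10 (95% interval -0.82 to 0.62, limma-trend adjusted p 0.946), turned positive (0.02 to 0.08) on omission of 1 mouse, either WT 4, WT 7, HSD17B1-KI 4 or HSD17B1-KI 5.

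Cyp26b1 (ENSMUSG00000063415, chr6:84571414-84593908), which degrades retinoic acid, had 954, 918, 1052, 1781, 854, 876 and 864 normalized counts in HSD17B1-KI mice 1 to 7. WT mice 1 to 8 had 815, 443, 682, 619, 1048, 979.5, 524 and 430. HSD17B1-KI 4 stood far above the rest of its group, the other 6 were within a narrow range, and WT 5 and WT 6 lay in that range. The log2 difference of 0.61 (95% interval 0.17 to 1.06) had an exact permutation p of 0.0179, unadjusted, but it was not DE with limma-trend (adjusted p 0.302) or DESeq2 (0.155).

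Other genes of the pathway were read from the same fits, 47 listed by role, of which 46 were in the table and 42 passed the filter. Rdh7, Adh4, Cyp26c1 and Stra8 were below it and Rdh19 was not analysed here. With limma-trend, edgeR and DESeq2 alike, 1 of the 42, Adh1, was DE. The shares of all genes called were 0.214% in limma-trend, 0.232% in edgeR and 2.30% in DESeq2. At an unadjusted p under 0.05 in limma-trend, 9 were higher and 4 lower, beside 5.36% and 4.64% of all genes. Their median log2 difference was 0.02, with 23 of 42 higher.

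Adh1 (ENSMUSG00000074207, chr3:138260991-138290698), an alcohol dehydrogenase that oxidizes retinol to retinal, had 45906, 32443, 26176, 52491, 28096, 47285 and 26709 normalized counts in HSD17B1-KI mice 1 to 7. WT mice 1 to 8 had 21045, 13641, 19193, 19717, 23143, 16659, 24099 and 14318. As for Aldh1a1, every HSD17B1-KI mouse was above every WT mouse, and HSD17B1-KI 1, 4 and 6 were the highest. The log2 difference was 0.94 (95% interval 0.56 to 1.31) with an adjusted p of 0.0468 in limma-trend, 0.0428 in edgeR and 1.09e-04 in DESeq2. The limma-trend call held in 3 of the 15 fits with 1 mouse left out, without HSD17B1-KI 5, HSD17B1-KI 7 or WT 7, with an adjusted p of up to 0.107 in the others, and was lost without WT 1 and WT 8 (log2 difference 0.90, limma-trend adjusted p 0.162), whereas DESeq2 called it in all 15 and without WT 1 and WT 8 (0.00159). With a score of the oviduct markers as a covariate and all mice kept, the log2 difference of Adh1 was 0.93 (limma-trend adjusted p 0.0487). Per kb of exon Adh1 ranked 75th in HSD17B1-KI and 165th in WT.

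The remaining oxidoreductases had differences in both directions, none of which passed the test with limma-trend. Akr1b8, a reductase with retinal among its substrates, had a log2 difference of 0.68 (limma-trend adjusted p 0.190) and was DE with DESeq2 in 2 of the fits without 1 mouse, without WT 3 (0.00577) or WT 6 (0.0149). Rdh10, which oxidizes retinol in the embryo, had -0.39 (limma-trend adjusted p 0.483), Rdh14 0.23 (0.309), Dhrs4 0.16 (0.416) and Rdh9 -0.78 (0.498). Among the genes at an unadjusted p under 0.05 outside this group were Lpl, a lipoprotein lipase, at -0.52, the carotenoid oxygenase Bco2 at 0.41, the aldehyde oxidase Aox1 at 0.33, the receptors Rxra at 0.24 and Rarg at -0.22, and Rarres2 and Rec8 at 0.37 and 0.71. DESeq2 called Rec8 without WT 1 (adjusted p 0.0155), Rec8 (0.0311) and Dhrs4 (0.0462) without WT 1 and WT 8, and Lpl (0.0390) and Rdh14 (0.0320) without HSD17B1-KI 3, but none of them on all mice. The most abundant gene of the retinal oxidation list, Cyp1b1, had -0.06, that of retinoic acid binding, Fabp5, 0.24, and that of the targets, Tgm2, -0.15.

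Of the genes with a retinoic acid response element printed above, Cyp26a1 was at 7.32 to 217 normalized counts in HSD17B1-KI and 12.04 to 1412 in WT. It was high in WT 8, WT 1, WT 4 and HSD17B1-KI 6, with 1412, 825, 437 and 217, and at or below 32.8 in the other 11 mice. The log2 difference was -1.56 (limma-trend adjusted p 0.698), and it was -0.26 (0.977) without WT 1 and WT 8. DESeq2 called it lower in 1 of its fits, that without HSD17B1-KI 6 (log2 difference -4.25, adjusted p 0.00881). WT 1 and WT 8 are the libraries with high oviduct markers, and the part of oviduct tissue in these values was not tested. Rarb lay between 132 and 262 normalized counts in HSD17B1-KI and between 87.3 and 226 in WT, with a log2 difference of 0.36 (limma-trend adjusted p 0.586).

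**Figure D4:**
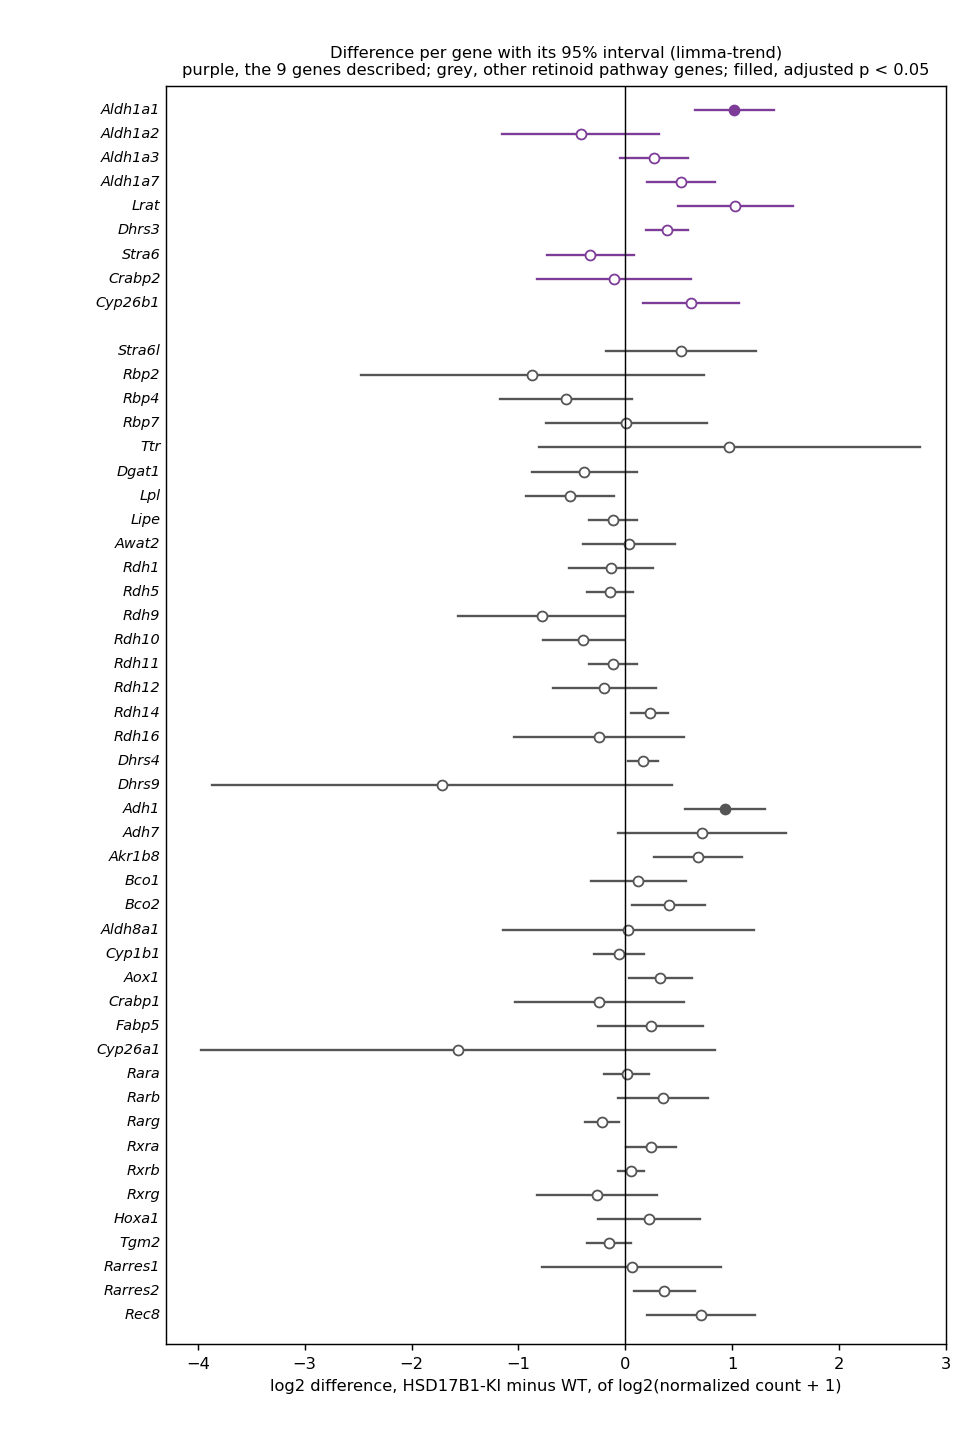
Log2 difference (HSD17B1-KI minus WT) of each gene with its 95% interval from limma-trend; purple, the 9 genes described; grey, other retinoid pathway genes tested; filled points, adjusted p under 0.05. Aldh1a1 at 1.02 and Adh1 at 0.94 are the filled points, and Lrat at 1.03 has a wider interval.

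How the genes varied together was described within genotypes, as the Pearson correlation of log2 values after each genotype's mean was subtracted, over 15 mice and with no test, since all values of a mouse share its library and cell composition. The genes most like Aldh1a1 among 18046 whose mean reached 10 normalized counts were Serpina3g (r = 0.92), a serine protease inhibitor, Gata1 (0.92), a transcription factor of blood cells, the adhesion receptor Gpr128 (0.91), the zinc finger gene Zkscan14 (0.91) and Klhl14 (0.90), and their differences between the genotypes were not DE with limma-trend. Lrat ranked 35th with 0.79. Adh1 had 0.60, Dhrs3 0.54, Crabp2 0.53, Aldh1a7 0.43, Aldh1a2 -0.28 and Stra6 -0.70. Aldh1a2 varied with Akr1b8 (0.77) and Stra6 (0.69), and Dhrs3 with Adh1 (0.75) and Cyp26b1 (0.61).

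**Figure D5:**
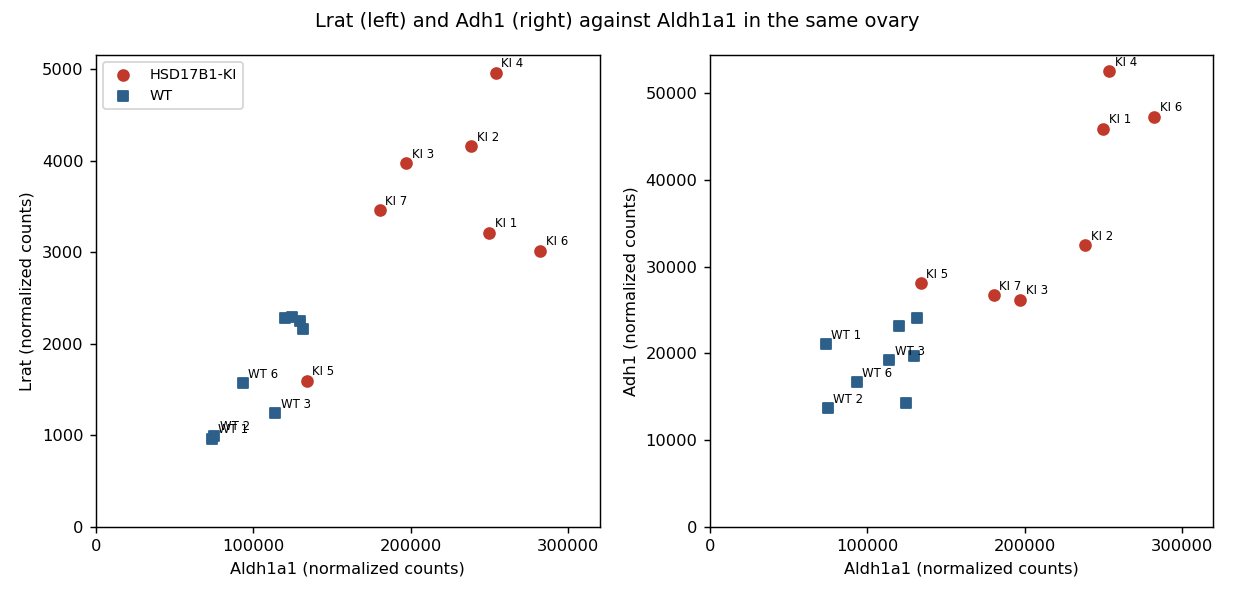
Lrat (left) and Adh1 (right) against Aldh1a1 in each mouse, in normalized counts on linear axes from 0; circles, HSD17B1-KI; squares, WT; 4 WT mice with Aldh1a1 between 120430 and 131407 have no label. WT 1 and WT 2 are lowest in both Aldh1a1 and Lrat, and HSD17B1-KI 5 lies within the WT range in Lrat and just above it in Aldh1a1.

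Some lists of cell type markers differed in their median level between the genotypes, which was not tested. The summed level of 7 granulosa markers was between 69706 and 207219 normalized counts in HSD17B1-KI (median, 181821) and between 84151 and 187551 in WT (median, 100373). HSD17B1-KI 1, 2, 3, 6 and 7 and WT 4 and WT 7 were at or above 170490, and the other 8 mice were at or below 122040. WT 4 and WT 7 had the highest Aldh1a1 of the WT mice, 129999 and 131407 normalized counts, and also their highest Aldh1a7. HSD17B1-KI 4, with the lowest granulosa sum of all, had 253944 normalized counts of Aldh1a1. The sum of 8 theca and interstitial markers was between 643263 and 1005206.5 in HSD17B1-KI (median, 830485) and between 418823 and 897330 in WT (median, 674377), and that of 5 luteal markers had medians of 99176 and 61761. In the other direction, the medians in HSD17B1-KI and WT were 4537 and 9912 for 5 adipose markers, 41399 and 59852 for 5 smooth muscle markers and 603 and 14600.3 for 6 oviduct markers, and the smooth muscle sum of 4 HSD17B1-KI mice was below that of every WT mouse. A sum mostly follows its most abundant genes. HSD17B1-KI 4 had the highest theca and interstitial sum but only 224 normalized counts of Cyp17a1, a marker of that list. No marker of these lists was DE with limma-trend, which did not call Lrat or Dhrs3 either. The DESeq2 results of the markers are not given here. With DESeq2, the study reported Insl3, on the theca and interstitial list, as upregulated in HSD17B1-KI. By quantitative PCR of ovaries in estrus, it also reported higher Cyp17a1, on the same list, in HSD17B1-KI at 6 months. The part of cell composition in the differences of Aldh1a1, Lrat and Dhrs3 was not tested.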

How the data were processed

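Stranded mRNA libraries (TruSeq) were made from the ovaries of 7 HSD17B1-KI and 8 WT mice, 1 for each mouse, and sequenced by Illumina NovaSeq. The authors demultiplexed the reads with bcl2fastq 2.20 and aligned them to mm10 with STAR 2.7.3, and they deposited a signal of gene counts divided by 1 size factor per library. The counting program, the annotation release, the read length and the treatment of reads that match several genes are not given in the sources used here. Each library had 1 step of which 100% of its values were whole multiples within 0.01, and the resulting whole reads were used for edgeR and DESeq2.

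Genotypes were compared on log2(normalized count + 1) with limma-trend, two-sided, for 21525 genes whose mean reached 2 normalized counts, and p-values were adjusted with the Benjamini-Hochberg method over all of them. The added 1 makes the log2 difference of low genes smaller than that of their means. The study used DESeq2, which was an alternative here because the deposited values are normalized and whole reads had to be recovered from them. On the recovered reads DESeq2 called 456 genes, 314 higher and 142 lower in HSD17B1-KI, the same numbers as the study reported. Single genes and the Aldh1a7 to Aldh1a1 ratio were compared with exact permutation tests over 6435 splits of the mice, unadjusted, with 0.0001554 as the smallest p possible. The fits were tested on simulated data. Intervals are 95% intervals of limma-trend, and counting error was not added to them. Named were the 9 genes, pathway genes that were DE or the most abundant of their list, the 5 genes most like Aldh1a1, and markers that moved with them. The other genes named at an unadjusted p under 0.05, Rdh9, Rdh10, Rarb and Cyp26a1 were picked with their values in view. The result of 1 gene is not reported here. The genes and lists were chosen with earlier results of these data known.

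Exonic lengths and positions came from GENCODE release 21 for mouse, which held 27533 of 27907 identifiers, and promoters from RefSeq. Fits were run with DESeq2 1.42.0, edgeR 4.0.16 and limma 3.58.1 in R 4.3.3, and the rest with Biopython 1.88 in Python 3.11.15. Numbers shared by mice of both genotypes did not pair them, as deviations from the group means correlated at 0.55 to -0.55 over 7 numbers. Alternatives were other pseudocounts, filters, scalings and tests, an oviduct marker covariate, a replicate block, each mouse left out and, added after the data were seen, WT 1 and WT 8 left out, DESeq2 without each mouse and another transcript length.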

Additional observations from a re-analysis of the deposited data

Results flagged for a closer look

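Of 22 groups of 7 or 8 mice tested for a single distant value, in the 9 genes, Adh1 and Akr1b8, 2 held one, where chance gives about 1 in 20. The count of 2 in 22 is not far from that rate, and the groups share mice and so are not independent. Cyp26b1 was at 1781 normalized counts in HSD17B1-KI 4, and the nearest mouse of its genotype was at 1052, a gap of 0.786 of the range. Aldh1a3 was at 930 in WT 5 with the nearest WT mouse at 673, a gap of 0.562 of the range. HSD17B1-KI 4 was also the highest of all mice in Lrat and Adh1.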

How the results depend on the processing

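The count of DE genes was 46, and it was 28 without a filter on low counts, 28 with quantile normalization, 146 at an adjusted p under 0.1, 456 with DESeq2 and 9 without WT 1 and WT 8. With 1 mouse left out it ran from 6, when HSD17B1-KI 2 was omitted, to 139, when HSD17B1-KI 5 was. Of the 9 genes, 1 was DE, and the count was 3 with DESeq2, 0 with quantile normalization or without WT 1 and WT 8, and 0 to 2 with 1 mouse left out; at an unadjusted p under 0.05, limma-trend gave 6 with quantile normalization (2223 of all 21525 genes) and 5 without WT 1 and WT 8 (1887 of 21342). Of the other pathway genes, 1 was DE, and the count was 0 without a filter, with quantile normalization or without WT 1 and WT 8, where limma-trend gave 13 (2402 of all 27907 genes), 14 and 10 at an unadjusted p under 0.05, and 0 to 1 with 1 mouse left out. DESeq2 called 1 pathway gene on all mice, 1 to 3 with 1 mouse left out and 3 without WT 1 and WT 8. It called 3 to 4 of the 9 genes with 1 mouse left out and 2 without WT 1 and WT 8. Over all genes DESeq2 called 456 of 19790 on all mice and 255 of 19147 without WT 1 and WT 8. With 1 mouse left out, its calls over all genes ran from 270 of 20299 to 674 of 19748. Quantile normalization lost the calls of Aldh1a1 (adjusted p 0.0603 in limma-trend) and Adh1 (0.0501), and Adh1 was at 0.0557 without a filter. The log2 difference of Crabp2 reversed to 0.023 with quantile normalization and ran from -0.27 to 0.082 with 1 mouse left out. The replicate numbers did not pair the mice, where 1 of 7 HSD17B1-KI mice correlated best with the WT mouse of its own number, and the replicate block over 14 mice gave 0 DE genes (1735 of 21507 at an unadjusted p under 0.05 in limma-trend) against 12 without it, 0 of the 9 genes (5 unadjusted) and 0 pathway genes (11 unadjusted). Under the block the log2 ratio of Aldh1a7 to Aldh1a1 was -0.54 (exact p 0.0625), and it was -0.60 to -0.42 with 1 mouse left out. The Aldh1a1 share ran from 91.4% to 94.0% in HSD17B1-KI and from 81.3% to 84.9% in WT with 1 mouse left out. Of the recalculated single-gene differences, 248 kept their direction and their side of the threshold, 30 lost the call, 3 gained it and 5, all of Crabp2, reversed. Only the DE genes could lose a call. Aldh1a1 lost it in 14 recalculations and kept it in 12, and Adh1 lost it in 16 and kept it in 10. The causes were not tested. Genes under about 10 normalized counts, such as Rdh9, rest on few reads.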
